A study of Caenorhabditis elegans with 2 samples.

Results

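Pseudogene peaks are the sites of the pooled relaxed peak list for the worm T-box factor TBX-9 whose summit lay inside an annotated pseudogene. A summit also had to lie more than 500 bp from any protein-coding transcript start and more than 250 bp from any tRNA, snoRNA, snRNA or miRNA gene. Of the 29990 nuclear peaks in the pooled list, 679 had a summit in a pseudogene and 651 met both distances. They lay in 497 of the 2055 pseudogenes that held any sequence open to the rule. The peaks inside protein-coding genes under the same distances, 14520 in number, served as the comparison. All 651 peaks were 390 bp wide, 121 pseudogenes held 2 or more of them, and 46 neighbouring pairs overlapped each other, so the peaks are not independent sites. Beside the 500 bp limit, the closest peaks kept were in clec-46 (507 bp, signal value 23.4) and F41B5.11 (513 bp, 19.2), and the closest left out were in F35F10.4 (476 bp, 20.1) and T05B4.4 (456 bp, 18.6). Beside the 250 bp limit, the closest kept were in Y57G11C.57 (307 bp, 26.1) and C04E12.10 (442 bp, 22.4), and those left out were in Y51H4A.20 (203 bp, 18.6) and srh-9 (126 bp, 40.1).

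Chromatin immunoprecipitation with sequencing was carried out on whole Caenorhabditis elegans of strain OP636, genotype unc-119(tm4063) III; wgIs636, whose transgene wgIs636 stably expresses TBX-9 with a C-terminal GFP-FLAG tag. Mixed-sex young adults were taken 63 hours after synchronization as starved L1 larvae, chromatin was sonicated, and the precipitation used an antibody to GFP. The 2 libraries, biological replicates 1 and 2, form a single group that shares the mutation and the transgene, and the promoter that drives the transgene is not given in the sources used here. A control experiment is named and was not analysed here, so no value below compares tagged with untagged worms, and every comparison is between kinds of sequence within the same libraries.

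A pseudogene is a copy of a gene that has lost the ability to make its product, usually through stop codons, frameshifts or deletions. In Caenorhabditis elegans many derive from large, fast-changing families such as chemoreceptors and F-box proteins, which lie mostly on the outer parts, or arms, of the autosomes. TBX-9 belongs to the T-box family of transcription factors, which bind DNA through a conserved domain that recognises a core written GGTGTGA, and acts with its close relative TBX-8 in embryonic morphogenesis. A tRNA pseudogene can keep the B box, the internal promoter element through which TFIIIC and RNA polymerase III are brought to tRNA genes.

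The sequences of the strongest sites are given first, because several carry a string from the B box, followed by those of the other tRNA pseudogenes with a peak, Y22D7AR.t1, C14E2.t1 and B0399.t11, which were weaker sites. Each comes from RefSeq (WBcel235, which is ce11) and is written 5′ to 3′ on the strand of the pseudogene. Those of srw-78, srh-238, T26C11.3, srb-7, ZK637.18, col-182 and hpo-42 span 101 bases around the summit, and those of tRNA pseudogenes span the whole gene. Capitals mark the central part of the B box, GTTCNANNC, on either strand; a match is a string of letters only.
srw-78, chrV:7432903-7433003 (+): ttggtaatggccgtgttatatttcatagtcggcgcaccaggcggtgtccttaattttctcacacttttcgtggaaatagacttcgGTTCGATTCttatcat
srh-238, chrV:15454426-15454526 (+): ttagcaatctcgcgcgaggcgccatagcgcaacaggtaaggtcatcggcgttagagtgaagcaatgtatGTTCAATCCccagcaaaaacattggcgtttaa
T26C11.3, chrX:1837835-1837935 (-): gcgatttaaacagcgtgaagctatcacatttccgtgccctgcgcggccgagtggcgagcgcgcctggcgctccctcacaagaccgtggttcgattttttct
srb-7, chrIII:7178601-7178701 (+): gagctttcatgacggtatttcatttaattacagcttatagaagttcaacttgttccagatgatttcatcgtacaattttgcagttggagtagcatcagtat
K10B2.t1, chrII:6358367-6358438 (-): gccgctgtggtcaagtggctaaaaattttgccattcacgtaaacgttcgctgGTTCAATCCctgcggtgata
ZK637.18, chrIII:8898372-8898472 (-): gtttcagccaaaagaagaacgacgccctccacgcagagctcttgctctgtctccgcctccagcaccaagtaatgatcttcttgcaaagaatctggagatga
col-182, chrX:12636507-12636607 (-): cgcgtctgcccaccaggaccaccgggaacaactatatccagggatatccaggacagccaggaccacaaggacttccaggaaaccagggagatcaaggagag
hpo-42, chrV:16027518-16027618 (-): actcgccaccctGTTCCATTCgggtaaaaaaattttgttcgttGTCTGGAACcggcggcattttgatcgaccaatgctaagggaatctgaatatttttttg
C52E12.t1, chrII:7001627-7001698 (+): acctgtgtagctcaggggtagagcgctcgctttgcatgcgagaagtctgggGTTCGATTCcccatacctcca
Y22D7AR.t1, chrIII:1743249-1743320 (-): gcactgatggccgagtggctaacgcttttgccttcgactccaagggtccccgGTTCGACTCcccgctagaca
C14E2.t1, chrX:1830653-1830747 (+): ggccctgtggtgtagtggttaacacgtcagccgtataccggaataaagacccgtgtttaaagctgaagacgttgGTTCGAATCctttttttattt
B0399.t11, chrV:19587264-19587335 (-): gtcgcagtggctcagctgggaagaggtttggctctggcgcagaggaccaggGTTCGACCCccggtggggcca

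The strongest pseudogene site was in srw-78, a member of the srw family of seven-transmembrane chemoreceptor genes, on chromosome V from 7432758 to 7433147. Its pooled signal value, the authors' own measure of a peak's height, was 131.1 and ranked 39 among the nuclear peaks. The replicate peaks there had signal values of 85.3, rank 38, in replicate 1 and 46.8, rank 132, in replicate 2. The summit lay in an exon near the 3′ end of the pseudogene and 1837 bp from the closest coding start. A second pooled peak of srw-78, from 7432957 to 7433346 with a signal value of 54.2, overlapped the first and met the same replicate peaks. These were the only 2 pseudogene peaks that overlapped a peak past the irreproducible discovery rate (IDR) threshold, and both overlapped a single IDR peak, the one from 7432758 to 7433147. The share of 0.307% (95% Wilson interval 0.0843 to 1.11%) compares with 0.289% of coding gene peaks and 0.737% of all nuclear peaks.

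The next sites were weaker by a wide step. The srh-238 peak, in an intron of another chemoreceptor pseudogene, had a pooled signal value of 86.6, rank 217, with 48.4 in replicate 1 and 40.4 in replicate 2. T26C11.3, which carries no family name, reached 66.4, rank 538, with 40.4 and 26.4. The intronic peak of srb-7, also named for a chemoreceptor family, reached 64.7, rank 593, with 40.8 and 30.1. K10B2.t1, a tRNA pseudogene, reached 60.0, rank 752, with 26.5 and 31.9. These 4 and srw-78 are labelled in the plot of replicate signal values because of their pooled rank. K10B2.t1 stood high there through replicate 2 and was not set apart, since C52E12.t1 lay at 29.8 and 31.8.

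ZK637.18, a pseudogene of 141 bp that matches 110 bp of the coding transcript of lin-9 at 98.2% identity, had a pooled signal value of 59.5. lin-9 encodes a subunit of the DREAM transcriptional complex and lies 1.77 kb away on the same chromosome. Repeated 31-base strings covered 29.2% of the window around the ZK637.18 summit, and their part in this signal was not tested. col-182, a pseudogene of a cuticle collagen, reached 57.1, with 35.0 in replicate 1 and 22.3 in replicate 2. hpo-42 reached 56.8 with 36.7 and 22.1, and C52E12.t1, a tRNA pseudogene, reached 55.8 with 29.8 and 31.8. The summits of K10B2.t1, hpo-42, C52E12.t1 and F59E12.16 (55.1) also lay inside a coding gene, which for C52E12.t1 was unc-104, the kinesin that carries synaptic vesicle precursors. In all, 40 of the 651 peaks had a summit in a coding gene as well.

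Some of the strongest sites were uneven between the libraries. For W04B5.2, which carries no family name, the pooled value was 51.9, with 38.1, rank 869, in replicate 1 and 11.3, rank 21345, in replicate 2. The F-box pseudogene fbxa-193 had a similar split, with a pooled value of 49.0, 34.2 in replicate 1 and 10.8 in replicate 2. F52C6.14 went the other way by rank, with a pooled value of 45.9, 25.1, rank 4685, in replicate 1 and 27.9, rank 986, in replicate 2. F28A10.2 (47.3), fbxa-175 (46.6), srbc-18 (46.4), F44E5.3 (46.3), F07H5.3 (45.0), srx-89 (44.1) and Y54G2A.42 (44.1) were the other pseudogenes among the 20 strongest. The 20 strongest peaks all overlapped a relaxed peak of both replicates. The pooled list is drawn from the same libraries, so this overlap is not independent, and the share among equally strong coding gene peaks is not given here.

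**Figure D1:**
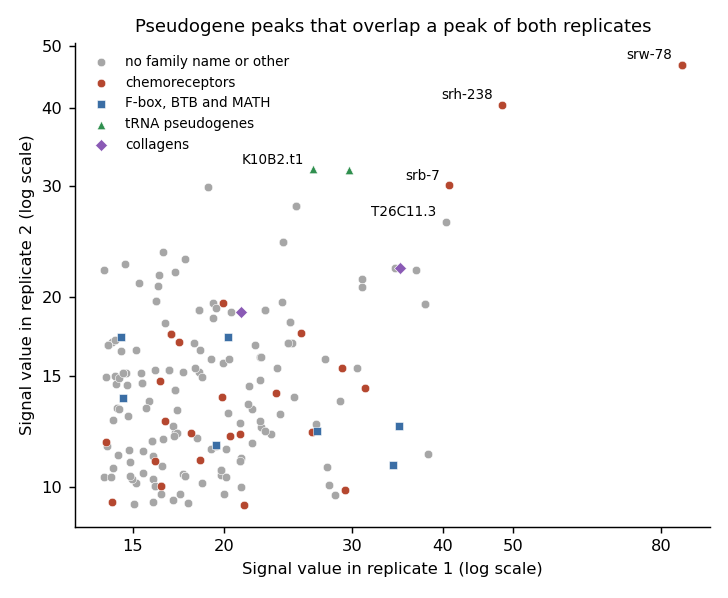
The signal value in replicate 1 (x axis, log scale) and replicate 2 (y axis, log scale) is plotted for the 186 pseudogene peaks that overlap a relaxed peak of both replicates, each point being a peak coloured by family name, where overlapping peaks can share a point. Most points form a cloud at low values, and srw-78, at 85.3 and 46.8, stands far to the top right, followed by srh-238 at 48.4 and 40.4.

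As a group, the pseudogene peaks were somewhat weaker than coding gene peaks in the pooled list. Their pooled signal values ran from 18.1 to 131.1 with a median of 23.6. The median was 24.7 for coding gene peaks and 25.1 for the whole list, which ran from 18.1 to 304.5. On the scale of rank percentile, where 0 is the weakest nuclear peak and 100 the strongest, the median of pseudogene peaks was 41.4 (95% order-statistic interval 38.3 to 46.1), against 47.9 for coding gene peaks. In replicate 1 alone the medians were 45.7 and 48.2, and the interval of 39.4 to 50.5 for pseudogene peaks included the coding value. In replicate 2 alone they were 40.9 and 48.9. The strongest 25% of the pooled list held 16.6% (13.9 to 19.6%) of pseudogene peaks and 21.9% of coding gene peaks, while the weakest 25% held 31.5% (28.0 to 35.2%) and 26.2%. The same ordering in the strongest 25% was seen in replicate 1, with 17.8% and 22.6%, and in replicate 2, with 17.5% and 23.3%.

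**Figure D2:**
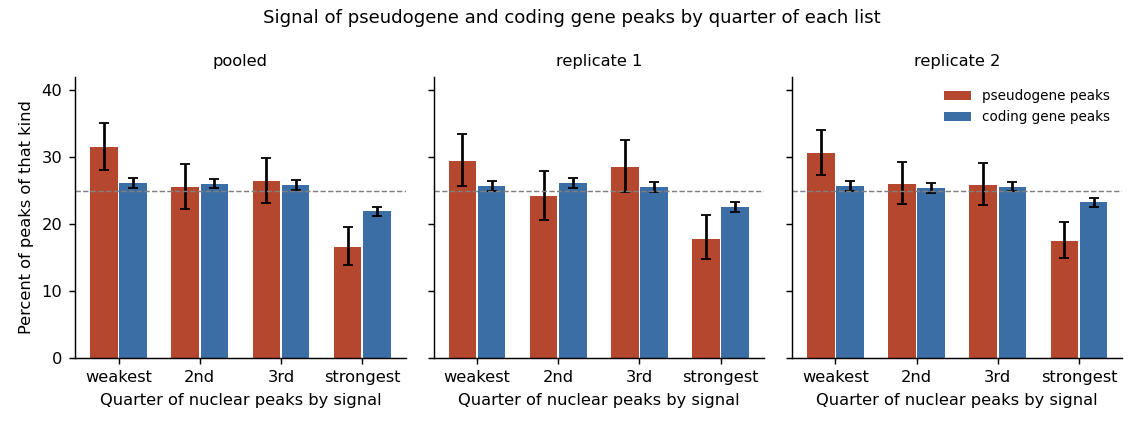
Bars give the percent of pseudogene peaks and of coding gene peaks in each 25% of all nuclear peaks ordered by signal value, in the pooled list and in each replicate list, with 95% Wilson intervals; the dashed line is at 25%. Pseudogene peaks are below coding gene peaks in the strongest 25% of each of the 3 lists, at 16.6%, 17.8% and 17.5%.

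Among the 3000 nuclear peaks of highest signal, which are 10.0% of all nuclear peaks by construction, were 29 pseudogene peaks, or 4.45% (3.12 to 6.32%), and 7.05% of coding gene peaks. The difference was -2.60 percentage points (95% Newcombe interval -4.00 to -0.685). Counted in replicate 1 alone it was -0.715 points (-2.87 to 2.03), an interval that includes 0, and in replicate 2 alone -2.72 points (-4.19 to -0.817). Among the 1000 strongest peaks the shares were 1.38% in both kinds. A deposited q of 0.05 or less was carried by 13 pseudogene peaks, or 2.00% (1.17 to 3.39%), by 3.28% of coding gene peaks and by 5.77% of all nuclear peaks.

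Pseudogene peaks were also less often shared between the libraries. Of the 651, 186 overlapped a relaxed peak of both replicates, 203 of replicate 1 only, 196 of replicate 2 only and 66 of neither. The share in both was 28.6% (25.2 to 32.2%), against 36.7% (36.0 to 37.5%) of coding gene peaks and 39.5% of all nuclear peaks. The difference between the kinds was -8.18 percentage points (-11.6 to -4.51). Overlap with replicate 1 was 59.8% and with replicate 2 58.7%, against 67.4% and 63.9% of all nuclear peaks. On the arms the share in both was 27.8% and 35.2% for the pseudogene and coding kinds, in the chromosome centres 30.4% and 38.1%, and more than 1500 bp from a coding start 29.1% and 36.1%. The lower share thus held in each of these subsets, with differences of -7.44, -7.67 and -7.04 points. Over the 186 shared peaks the rank correlation of the 2 replicates' signal values was 0.269, and over the 5336 shared coding gene peaks 0.204; both describe peaks that come from the same 2 libraries.

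Pseudogenes held fewer peaks for their length than coding genes. Over 3.10 Mb of pseudogene sequence open to the rule there were 210.2 peaks per Mb (exact Poisson 95% interval 194 to 227), and over 46.7 Mb of coding gene sequence 311 per Mb (306 to 316). The ratio was 0.676 (0.625 to 0.731). In replicate 1 it was 0.663 (0.607 to 0.724), from 522 pseudogene peaks, and in replicate 2 0.738 (0.686 to 0.795), from 738. The ratio was 0.729 on the arms and 0.627 in the centres. By chromosome it ran from 0.411 (0.312 to 0.540) on X, where pseudogenes held 151 peaks per Mb and coding genes 368, to 0.763 (0.632 to 0.920) on II. X was also lowest in each replicate list, at 0.394 in replicate 1 and 0.548 in replicate 2.

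**Figure D3:**
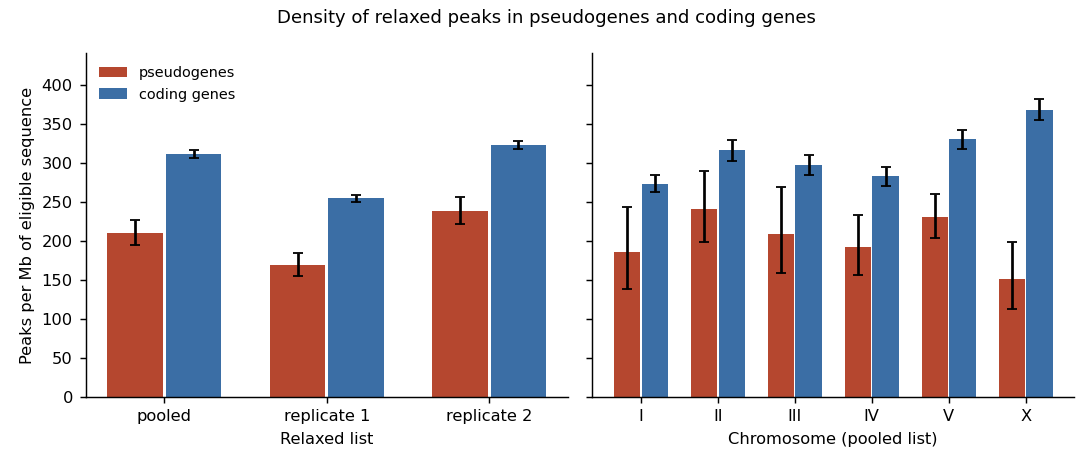
Peaks per Mb of sequence open to the rule are shown for pseudogenes and coding genes in the 3 relaxed lists (left) and by chromosome in the pooled list (right), with exact Poisson 95% intervals. The pseudogene bar is the lower of each pair, and the gap is widest on X, at 151 against 368 peaks per Mb.

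Within pseudogenes, exons held 233 peaks per Mb (212 to 256) and introns 173 per Mb (151 to 199). In coding genes the values were 400.4 and 239.5. In replicate 2 alone pseudogenes had 276 per Mb in exons and 178 in introns, while in replicate 1 alone the values were 168 and 170, a pair whose intervals overlap. With each pseudogene divided into 3 equal parts, the 5′ part held 34.6% of the peaks, the middle 31.2% and the 3′ part 34.3%. Coding genes had 19.0%, 36.9% and 44.1%, where the rule itself removes the first 500 bp after each start. The median distance to a coding start was 2373 bp for pseudogene peaks and 1529 bp for coding gene peaks.

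Counted by gene, 24.2% (22.4 to 26.1%) of open pseudogenes and 42.5% of coding genes held a pooled peak. Pseudogenes were shorter, with a median of 1172 bp open to the rule against 1497 bp, so the genes were also compared at like length. From 1001 to 2000 bp, 211 of 754 pseudogenes (28.0%, 24.9 to 31.3%) and 39.0% of coding genes held a peak. Over 4000 bp the shares were 61.4% (52.7 to 69.4%) and 76.6%. The share was lower in pseudogenes in each of the 5 length classes. The pseudogenes with the most peaks, 5 each, were C06A1.4, F48F5.2 and R03D7.3, followed by B0524.4 and F02H6.4 with 4. C06A1.4 is closest to wago-4, a germline Argonaute gene, at 80.4% identity over 3354 bp. The 5 peaks of C06A1.4, of which a pair overlap, had pooled signal values from 20.3 to 32.9. Counted without the distance limits, wago-4 held 3 pooled peaks with a best value of 43.6.

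**Figure D4:**
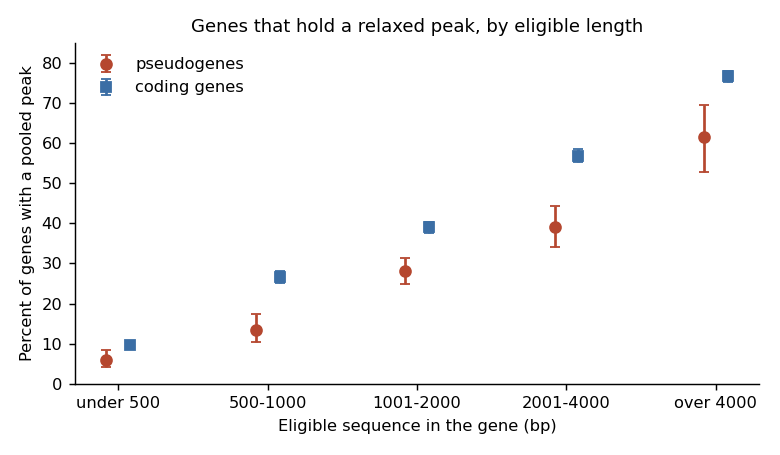
The percent of pseudogenes and of coding genes that hold at least 1 pooled peak is plotted against the length of their sequence open to the rule, with 95% Wilson intervals. Both rise with length, and pseudogenes lie below coding genes in every class, with 28.0% against 39.0% from 1001 to 2000 bp.

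Sequence that recurs elsewhere in the genome is a feature of pseudogenes and was more common at their peaks. A 31-base string found elsewhere lay within 100 bp of the summit in 196 pseudogene peaks, or 30.1% (26.7 to 33.7%), against 11.6% of coding gene peaks and 14.1% of all nuclear peaks. More than 50% of the strings around the summit were repeated in 19 pseudogene peaks, or 2.92%, and in 1.10% of coding gene peaks. The sequence open to the rule differed as well: a base with a repeated string within 100 bp made up 44.2% of it in pseudogenes and 19.1% in coding genes. Peaks per Mb were lower in such sequence in both kinds, at 143 against 263 elsewhere in pseudogenes and at 189 against 340 elsewhere in coding genes. Without it the density ratio was 0.775 (0.706 to 0.851). The share of peaks in both replicates without it was 27.9%, against 37.4% in coding genes. How reads that match several places were treated is not given in the sources used here, and their part in the lower density was not tested.

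Most pseudogene peaks lay on the arms, here the outer 25% of chromosome length at either end. The share was 70.2% (66.6 to 73.6%), against 46.8% of coding gene peaks. The pseudogene sequence itself was placed in the same way, with 70.0% of it on the arms, against 50.2% of coding gene sequence. Chromosome V held 41.6% of the pseudogene peaks and 38.0% of the pseudogene sequence. Per Mb, there were 211 (192 to 231) pseudogene peaks on the arms and 208 (180.2 to 240.0) in the centres, with overlapping intervals, while coding gene peaks were less frequent on the arms (289 against 333). The median GC content within 100 bp of the summit was 40.8% in both kinds.

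**Figure D5:**
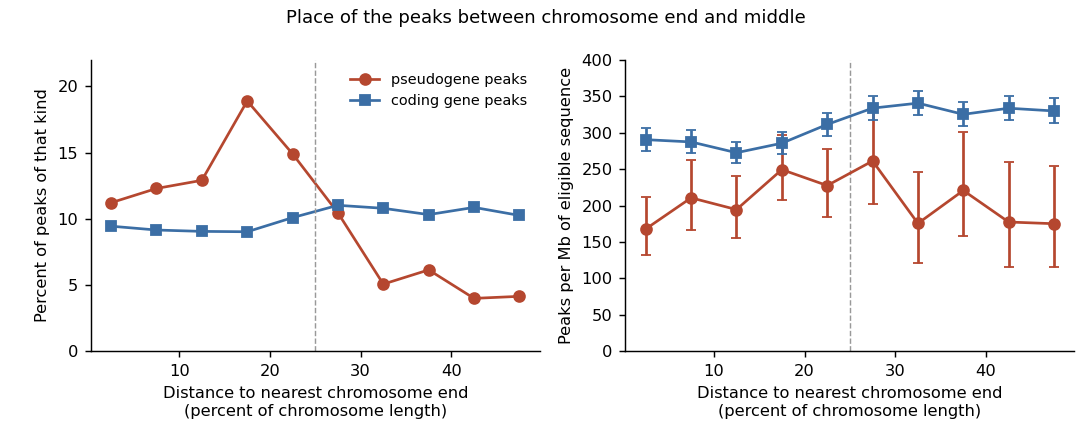
The share of peaks (left) and the peaks per Mb of sequence open to the rule (right, with exact Poisson 95% intervals) are plotted against the distance to the nearest chromosome end in percent of chromosome length; the dashed line at 25% is the edge of the arm. Pseudogene peaks reach 18.9% of their number between 15 and 20%, and per Mb they are below coding gene peaks in all 10 bins, with intervals that overlap in some of them.

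By family name, the chemoreceptor pseudogenes were the largest group after those without one. Of 320, 82 (25.6%, 21.2 to 30.7%) held 97 peaks, 83 of them on chromosome V, with a density of 195 per Mb and a median percentile of 47.9. The share compares with 24.2% of all pseudogenes, which include the short tRNA pseudogenes. The density compares with 209 per Mb over all pseudogenes, with open length summed gene by gene. Of the 29 strong pseudogene peaks, 7 were in this family, which held 97 of all 651. The overlapping pair of srw-78 peaks is among these 7. The pseudogenes of F-box, BTB and MATH proteins, which act as substrate adaptors for protein degradation, held a peak in 22 of 93 (23.7%), and all 25 of their peaks lay on the arms. Of all 651 pseudogene peaks, 70.2% lay on the arms and 41.6% on chromosome V. How much of the sequence of either family lies there was not counted, so these counts may only follow the place of the genes. The strongest of the F-box, BTB and MATH group were fbxa-193 (49.0), fbxa-175 (46.6) and fbxa-20 (33.1). fbxa-175 matches the coding gene F31E9.3 at 91.4% over 651 bp. Counted without the distance limits, that gene held 2 pooled peaks with a best value of 50.8.

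C-type lectin pseudogenes, named for a family of carbohydrate-binding proteins, held a peak in 9 of 25 (36.0%, 20.2 to 55.5%), led by clec-30 (34.9), clec-69 (31.6) and clec-131 (30.2). Nuclear hormone receptor pseudogenes held one in 3 of 14, nhr-194 (30.5), nhr-250 (27.7) and nhr-215 (27.6), and none of these 3 peaks was in both replicates. The collagen pseudogenes with a peak were col-182 and col-66 (35.7), 2 of 3, and the only sperm protein pseudogene with one was msp-42 (21.2). In the pooled list no peak was found in the 6 pseudogenes of detoxification enzymes, which allows a share of up to 39.0%, while 1 of the 6 held a peak in replicate 2 alone. Other named pseudogenes had a peak in 42 of 118 (35.6%), among them hpo-42, cest-15 (42.2) and dct-10 (40.7). They were longer, with a median of 1875.5 bp open to the rule against 1172 bp over all pseudogenes. Their density was 201.4 peaks per Mb (150.8 to 263.4), against 208.9 over all pseudogenes, with open length summed gene by gene. The higher share of genes was thus not matched by a higher density. Pseudogenes with no family name had a peak in 331 of 1300 (25.5%).

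Of the 173 open tRNA pseudogenes, with a median of 73 bp open to the rule, 5 held a pseudogene peak (2.89%, 1.24 to 6.59%). For their short length this was 407 peaks per Mb (132 to 949), against 209 per Mb over all pseudogenes when open length is summed gene by gene. Beside K10B2.t1 and C52E12.t1, these were Y22D7AR.t1 with a pooled signal value of 33.5, rank 6330, and C14E2.t1 and B0399.t11, which ranked 23631 and 28946. The first 2 were in both replicates, and Y22D7AR.t1 overlapped a peak of replicate 2 only. The full B box, the longer string of which the capitals above are the centre, lay within 100 bp of the summit in all 5. Each of these 5 genes is shorter than 100 bp, so a B box in the gene falls in that window by construction. Of the 173 open tRNA pseudogenes, 126 hold the full B box in the gene. Over all 651 pseudogene peaks the full B box was in 9 (1.38%, 0.729 to 2.61%). It lay at 0.551% of coding gene peaks and at 1.79% of all nuclear peaks. Apart from the tRNA pseudogenes it was in 4 of 646 (0.619%). A pooled summit within 100 bp was found for 18 of 126 open tRNA pseudogenes with a B box (14.3%, 9.23 to 21.5%) and for 2 of 47 without one (4.26%, 1.17 to 14.2%). These counts include peaks left out of the 651 by the rule, and both this string and the shorter one were looked for after the strongest sites had been seen.

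The shorter string GTTCNANNC was in 68 pseudogene peaks (10.4%, 8.32 to 13.0%), in 8.60% of coding gene peaks and in 9.44% of all nuclear peaks. It was in 8 of the 29 pseudogene peaks among the 3000 strongest (27.6%, 14.7 to 45.7%) and in 60 of the 622 weaker ones (9.65%, 7.57 to 12.2%). Coding gene peaks had it in 8.69% of the strong and 8.60% of the weaker. The 6 peaks with it among the 20 strongest were those of srw-78, srh-238, K10B2.t1, hpo-42, C52E12.t1 and F07H5.3. Of these, K10B2.t1 and C52E12.t1 are tRNA pseudogenes. Because the string was chosen after the strongest sites had been seen, the contrast of strong with weaker peaks is no test of the string.

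The T-box core GGTGTGA lay within 100 bp of the summit in 10 pseudogene peaks. It was looked for on both strands, and no match in this window says nothing about binding by TBX-9. The share of 1.54% (0.836 to 2.80%) compares with 1.60% of coding gene peaks and 1.73% of all nuclear peaks, a difference from the coding kind of -0.0686 points (-0.801 to 1.21). In replicate 1 alone 4 of 522 peaks held it, or 0.766% (0.298 to 1.95%), against 1.61% of coding gene peaks. In replicate 2 alone 8 of 738 held it, or 1.08% (0.550 to 2.12%), against 1.76%. The share was thus below the coding share in either replicate list, with intervals of the difference that include 0. The longer form AGGTGTGA was in 2 of the 651 (0.307%) and in 0.406% of coding gene peaks. None of the 10 was among the 3000 strongest peaks, where 4.45% of all 651 pseudogene peaks lay, so 10 peaks are too few to show a difference. All 10 are shown in the order of their signal, with the core in capitals and 12 bases to either side.
K12B6.8, chrV:6309692-6309722 (+): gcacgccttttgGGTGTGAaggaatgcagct
C06C6.6, chrV:15989003-15989033 (-): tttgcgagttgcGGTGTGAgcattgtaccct
K08D10.18, chrIV:4168033-4168063 (-): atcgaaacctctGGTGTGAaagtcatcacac
R02C2.8, chrV:243329-243359 (-): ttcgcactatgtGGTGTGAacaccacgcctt
set-33, chrX:258711-258741 (+): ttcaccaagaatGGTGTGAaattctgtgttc
W03B1.1, chrIV:4334308-4334338 (+): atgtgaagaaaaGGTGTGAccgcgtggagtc
str-70, chrV:3095325-3095355 (+): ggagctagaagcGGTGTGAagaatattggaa
srx-61, chrV:3910023-3910053 (-): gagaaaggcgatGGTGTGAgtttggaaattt
K09D9.11, chrV:3998135-3998165 (-): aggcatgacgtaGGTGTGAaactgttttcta
srx-15, chrIV:9021514-9021544 (+): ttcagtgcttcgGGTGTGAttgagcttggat
Their pooled signal values ran from 32.2 for K12B6.8 to 19.7 for srx-15. Of the 10, 5 overlapped a relaxed peak of both replicates, against 28.6% of all 651 pseudogene peaks. str-70, srx-61 and srx-15 belong to chemoreceptor families, and set-33 is named for the SET domain of histone methyltransferases.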

How the data were processed

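The authors called relaxed peaks (peaks and background) on ce11 in each library and in both pooled, against a control, and derived an IDR list from them, per the descriptions deposited beside the lists. Neither aligner nor peak caller is named in the sources used here. The signal value per deposited peak is the authors' and its scaling for depth is unknown. Summit offsets and the −log10 q that the authors deposited were read by narrowPeak column order. No read counts were in the files used, so depth is unknown; the same lists on ce10 were not used. Summits were set against Ensembl release 115 and RefSeq sequence of WBcel235, and pseudogenes were named by RefSeq symbol (found for 1918 of 2128). Members, families and motifs were chosen with earlier results of these data known. Genes were named by rule: the 20 pseudogenes with the strongest peak, those at an IDR peak, up to 3 per family, those at the limits, and the 5 with most peaks; sequences were printed longer than first planned. Shares have Wilson, differences Newcombe, densities exact Poisson and medians order-statistic 95% intervals; the density ratio's is computed on the log scale. They cover counting error only, treat peaks as independent, and carry no spread between animals; with 1 group of 2 libraries no p-value is given. Coding matches and copies were found with blastn 2.17.0 (e-value at most 1e-10), with no limit on the aligned share of a pseudogene. Calculations ran in Python 3.11.15 (numpy 2.4.6, pandas 2.3.3, scipy 1.17.1, matplotlib 3.10.9); the steps were checked on simulated data. Alternatives changed the distances, the position of a peak, genes with several peaks, repeated sequence, overlap, windows and the replicate list.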

Additional observations from a re-analysis of the deposited data

How the results depend on the processing

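Of 107 alternative values, 95 stayed within the interval of their result, or within 1.5 times a count, 11 moved outside it and 1, among the 1000 strongest peaks, changed sign from a difference whose interval left out 0. Among the 95 were all values at the peak midpoint, which equalled those at the summit and so tested nothing. Leaving out 25 kb around tbx-9 removed no pseudogene peak, so its values, also among the 95, had little room to change. Of the 95, 4 changed sign where the interval included 0: the IDR difference, 0.0180 points in the pooled list, was -0.175 with the strongest peak of each gene, -0.136 without replicate 1 and -0.0599 when 50% of both peaks had to overlap, and the T-box core difference was 0.270 with the strongest peak of each gene. With the strongest peak of each gene alone, the density ratio was 0.972, the percentile difference -10.7 and the difference among the 3000 strongest -6.12 points; this counts genes with a peak per Mb, not peaks. Without repeated 31-base strings the density ratio was 0.775. At 1000 and 500 bp from starts and small RNA genes the difference in genes with a peak was -15.0 points. Among the 1000 strongest peaks the strong peak difference was 0.00508 points, and with summits within 100 bp the difference in both replicates was -4.38 points. The GC difference was -0.990 points in a window of 50 bp. Added after seeing the data, chromosome arms gave a GC difference of -0.995 points and centres a strong peak difference of -0.532 points. Leaving out a replicate gave 522 to 738 peaks, density ratios of 0.663 to 0.738, differences of -17.8 to -17.7 points in genes with a peak, -7.95 to -2.53 in percentile, -10.5 to -8.41 in overlap with the other replicate, -2.72 to -0.715 among the strongest, -0.136 to 0.246 at IDR peaks, 1.55 to 2.28 in repeated sequence, 22.4 to 26.7 on the arms and -0.842 to -0.674 in the T-box core; GC differed by 0 in each. No paired analysis was possible because the labels give 1 group, with no second group that shares the replicate numbers.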

Other observations

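Copies of the pseudogene sites elsewhere in the genome were looked for after the data had been seen. For 342 of the 651 peaks (52.5%, 48.7 to 56.3%), the sequence around the summit aligned over at least 100 bp to another place, with a median identity of 84.4% (82.9 to 85.5%). The same was not counted for coding gene peaks or for other pseudogene sequence, so this share cannot be read as a trait of the peaks. Some copies are repeats found in many places: a window of B0524.4 had 5466 such alignments and one of T26C11.3 had 2707. The best copy lay in a coding gene for 232, in another pseudogene for 62 and in neither for 48, and on the same chromosome for 221. A pooled summit lay within 195 bp of the coding copy in 42 of 232 cases (18.1%, 13.7 to 23.6%), while 11.7% of coding gene sequence open to the rule lay that close to a pooled summit. The copies were not held to the distance limits, so these shares come from unlike sets of sequence and do not show an excess at copies. In 23 of the 42 cases with a summit near the coding copy, the peak at the copy was the stronger. The share of copies with a peak was 16.9% where the pseudogene window held no repeated 31-base string and 16.5% where it held one. Examples are fbxa-175, whose copy in F31E9.3 had a peak of rank 1366, and col-182, whose copy in col-34 had one of rank 2504.

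Of the 37 pseudogenes named by rule, those at the distance limits aside, 27 had a coding match by blastn, and for 17 the best match lay on the same chromosome. No aligned share was required, so a match need not be a related gene. Some were short, such as 100 of 3971 bp for F44E5.3 and 223 of 3551 bp for cest-15. The best matches were 26 distinct genes, of which 16 held a pooled summit (61.5%, 42.5 to 77.6%), against 52.4% of all coding genes counted in the same way, without the distance limits. R03D7.3, with 5 peaks, matches its neighbour R03D7.2 at 98.6% over 286 bp, and that gene held a peak of signal value 55.8. srw-78 matches srw-79 at 79.2% over 101 bp, and the best pooled peak of srw-79 had a signal value of 21.5, against 131.1 in srw-78.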
